A study of Mus musculus with 18 samples.

Results

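Laminins are large basement membrane glycoproteins built from 3 chains, and 9 of the 24062 genes in the count tables are described here: the alpha chain genes Lama1, Lama2, Lama3, Lama4 and Lama5, the beta chain genes Lamb1, Lamb2 and Lamb3, and the gamma chain gene Lamc1. They were chosen by name, after Lama2 had been seen to fall about 30-fold in the cell line that carries mCherry-mTRIM21. The difference between the lines therefore chose the members, and their values in that comparison are given as a description with no test. Treatment differences did not enter the choice and were tested.

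The 18 RNA samples, in 6 groups of 3, came from NIH3T3, a mouse fibroblast line of embryonic origin. The parental NIH3T3 line (genotype wild-type, called WT below) and the derived NIH3T3-mCherry-mTRIM21 line (genotype mCherry-mTRIM21, called TRIM21 below) were each electroporated with PBS, with bovine serum albumin (BSA) or with an antibody (IgG). All 6 groups were grown in 10% calf serum and received 2 pulses of 20 ms at 1400 V. Protein, where given, was 7.5 µg per reaction, and RNA was taken 16 h later. TRIM21 is a ubiquitin ligase that binds antibodies in the cytosol. There is 1 derived line and the labels do not say how it was made or whether it is 1 clone, so the fusion and any other difference between the lines cannot be told apart. The labels do not say whether the 3 samples of a group came from separate cultures, so p-values measure the spread between these samples, which may be technical.

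Each laminin is a trimer of 1 alpha, 1 beta and 1 gamma chain, joined through a coiled coil before secretion. The alpha chain carries the globular domains at its C-terminal end that bind integrins and dystroglycan on the cell surface. The Lama2 chain, paired with Lamb1 or Lamb2 and with Lamc1, is the main laminin alpha chain around skeletal muscle fibres and Schwann cells, and its loss in patients and mice causes a congenital muscular dystrophy. Lama4 is typical of mesenchymal and vascular cells, is more abundant in muscle that lacks Lama2, and lacks the N-terminal domain through which other laminins polymerise. Lama1 belongs mainly to embryonic basement membranes, Lama3 and Lamb3 to epithelia such as epidermis, and Lama5 to many adult epithelial and vascular basement membranes.

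The gene-assigned reads per sample ran from 19509017 to 29766433. Reads that matched no counted gene feature were 13.2% to 18.9% of these and the gene-assigned reads together. Trim21 checked the labels, with 142 to 223 counts in each WT sample and 19900 to 32225 in each TRIM21 sample. All 10 fibroblast markers passed the filter on low counts, with a summed level of 24047 to 32255 CPM (counts per 1000000 reads, scaled by TMM) in WT samples and 16784 to 28318 CPM in TRIM21 samples. Of those 10, Thy1 was lower in the TRIM21 line (log2 fold change -0.29, adjusted p = 0.0207 by Benjamini-Hochberg in the edgeR quasi-likelihood fit). The muscle regulators Myod1, Myog and Myf5 and the Schwann cell factors Sox10 and Foxd3 were at 0 counts in every sample. The 8 skeletal muscle markers summed to at most 0.887 CPM in a WT sample and 1.09 CPM in a TRIM21 sample. The 6 Schwann cell markers summed to 173 to 224 CPM in WT and 121 to 207 CPM in TRIM21 samples, nearly all of it Pmp22 and Egr2. The endothelial markers summed to at most 2.70 CPM in a sample, the epithelial markers to 2.32 CPM and the macrophage markers to 11.9 CPM. The part of these marker levels in the results below was not tested. The TRIM21 PBS sample numbered 11 in its title was the lowest of its line for Lama4, Lamb2 and Lamc1, and the line values of these genes and of the alpha chain sum are given with and without it.

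Lamb1 and Lamb2, the beta chains named above as partners of Lama2, were each read at a similar level in both lines. The upstream sequences are shown for Lama2, the gene that fell, and for Lamb1 but not Lamb2. They are the 250 bases before the RefSeq transcript start, in GRCm38, 5′ to 3′ on the gene's strand, with CG dinucleotides in capitals. The first is chr10:27616943-27617192 on the minus strand and the second chr12:31265043-31265292 on the plus strand.
Lama2: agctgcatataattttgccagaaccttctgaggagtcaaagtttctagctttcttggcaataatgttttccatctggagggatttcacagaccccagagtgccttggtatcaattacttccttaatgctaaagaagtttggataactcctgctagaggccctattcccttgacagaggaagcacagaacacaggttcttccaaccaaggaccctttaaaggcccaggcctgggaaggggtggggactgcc
Lamb1: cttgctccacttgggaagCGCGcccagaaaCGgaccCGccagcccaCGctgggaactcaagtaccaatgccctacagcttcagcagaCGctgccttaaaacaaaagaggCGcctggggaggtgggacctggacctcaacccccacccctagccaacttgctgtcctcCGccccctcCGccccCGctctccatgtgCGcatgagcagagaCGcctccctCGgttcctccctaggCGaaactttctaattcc

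The motif counted was CG, which reads the same on both strands. The Lama2 window holds 0 CG dinucleotides, as do 7.87% of the 32851 windows of that length in the RefSeq table. The Lamb1 window holds 14, and 29.4% of windows hold at least that many. The table matched 5 of the 9 members. Lama5, which was barely read in these cells, had 19 in its window. Lamb2, which was well read, had 3, and the windows of Lamb3 had 2 and 3. Any link between this count and the level was not tested. The GENCODE model of Lama2 (chromosome 10, 26980036 to 27619758, minus strand, protein coding) begins upstream of this start, so at least 1 annotated transcript starts elsewhere. The GENCODE models of Lamb1 and Lamb2 begin inside their windows, at 31265234 and 108479736, so the last bases of these windows lie within the annotated genes. The model of Lamb3 begins upstream of both its windows.

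Levels of different chains were compared per length, as reads per kilobase of annotated exon at the CPM scale (RPKM), with the length taken as the union of a gene's exons. In the WT line Lama4 was by far the highest alpha chain, at 12.4 ± 1.95 RPKM (SD, n = 9). Lama2 came next at 0.546 ± 0.118 RPKM, then Lama3 at 0.0648 ± 0.0188 RPKM and Lama5 at 0.0175 ± 0.00592 RPKM (SD, n = 9 each). The ranges of these 4 genes over the 9 WT samples did not overlap. Lama1 had 0 counts in all 18 samples, where 3 counts, the lowest number taken as detectable, would have been 0.0981 to 0.152 CPM.

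In the TRIM21 line Lama4 was again the highest alpha chain, at 8.21 ± 1.53 RPKM, and the second place went to Lama3 at 0.0660 ± 0.0316 RPKM (SD, n = 9 each). Lama5, at 0.0208 ± 0.0127 RPKM, and Lama2, at 0.0183 ± 0.00881 RPKM, followed and did not differ beyond their spread (SD, n = 9 each). Without the TRIM21 PBS sample numbered 11, Lama4 stood at 8.64 ± 0.847 RPKM (SD, n = 8).

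Among the partner chains of the WT line, Lamc1, the gamma chain of most laminins, was highest at 44.7 ± 5.20 RPKM. Lamb1 followed at 32.5 ± 3.16 RPKM and Lamb2, the beta chain enriched at the neuromuscular junction and in kidney, at 18.2 ± 3.89 RPKM (SD, n = 9 each). In the TRIM21 line the same genes stood at 42.5 ± 5.51, 34.0 ± 5.23 and 17.0 ± 3.67 RPKM (SD, n = 9 each). Both beta chains and Lamc1 thus stayed above every alpha chain on this scale in the line means. With the length of the longest annotated transcript instead, Lamb1 (55.8 RPKM in WT) came above Lamc1 (48.5) and Lama4 (24.7) above Lamb2 (19.7). The order of the alpha chains in WT was as before. In the TRIM21 means Lamb1 (58.2 RPKM) was again above Lamc1 (46.2), but Lama4 (16.4) stayed below Lamb2 (18.4). Lama2 (0.0310 ± 0.0150) then came above Lama5 (0.0208 ± 0.0127) in TRIM21, within their spread (SD, n = 9 each). Lamb3, which pairs with Lama3 in epidermis, had 0 counts in 12 of 18 samples and at most 2 counts in the others, below the detectable 3.

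**Figure D1:**
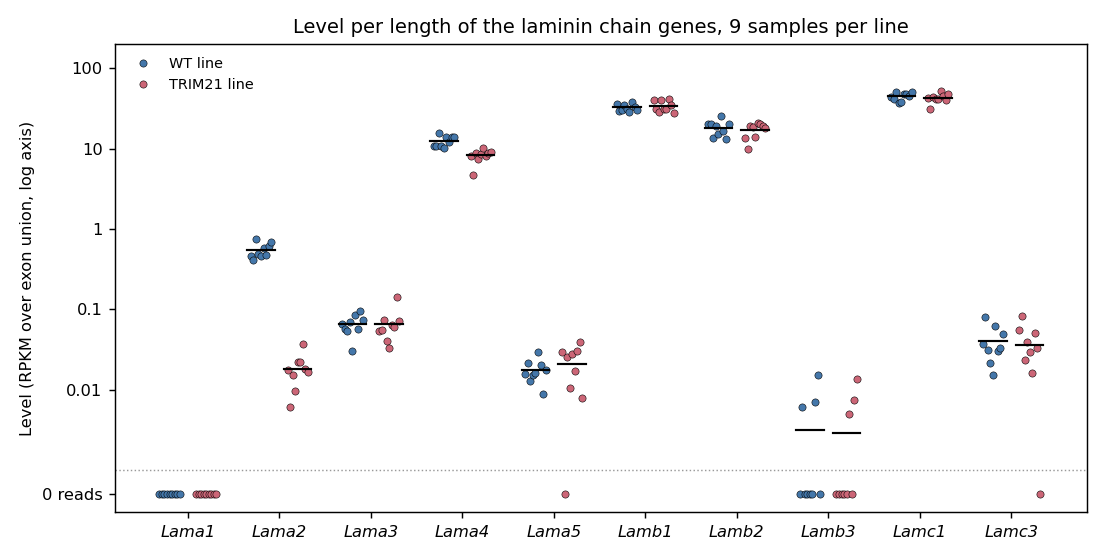
Level per length (RPKM over the exon union, log axis, samples with no read on the lowest line) of the 9 laminin chain genes and of Lamc3. Each point is a sample, 9 per line, and each bar is the mean of a line. Lama2 moves from 0.546 RPKM in WT to 0.0183 in TRIM21, while Lama3 and Lama5 keep overlapping values and Lama1 has no read in any sample.

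Lama2 was read in every WT sample at 163 to 255 counts. Its level was 7.52, 6.64 and 12.2 CPM in the WT PBS samples numbered 10, 11 and 14, it was 8.02, 7.51 and 9.48 CPM in the WT BSA samples, and 7.67, 9.95 and 11.3 CPM in the WT IgG samples. In the TRIM21 line it had 2 to 14 counts per sample, at 0.285, 0.10 and 0.250 CPM after PBS, 0.159, 0.358 and 0.360 CPM after BSA and 0.609, 0.297 and 0.269 CPM after IgG, in the same order of numbers. Every TRIM21 value lay below every WT value, and the TRIM21 PBS sample numbered 11, with 2 counts, was the one below the detectable 3.

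The mean of Lama2 was 8.93 ± 1.92 CPM in WT and 0.299 ± 0.144 CPM in TRIM21 (SD, n = 9 each), a 29.9-fold difference. The fold was 41.5 after PBS, 28.5 after BSA and 24.6 after IgG, and leaving out the TRIM21 PBS sample numbered 11 brought the PBS fold to 32.9. Leaving out 1 sample at a time gave 27.6 to 34.4-fold, the lowest without the TRIM21 PBS sample numbered 11 and the highest without the TRIM21 IgG sample numbered 10. Among all 12140 tested genes the fall ranked ninth by fitted log2 fold change, which was -4.90 (SE 0.198). These are bulk samples, so fewer cells with Lama2 RNA and less Lama2 RNA per cell cannot be told apart. For comparison, 203 of the 12140 tested genes had every TRIM21 value below every WT value (1.67%), and Lama2 was the one laminin chain among them.

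Lama4, the other alpha chain with a sizeable level, was also lower in the TRIM21 line. It stood at 130, 128 and 186 CPM in the WT PBS samples numbered 10, 11 and 14, it was 130, 121 and 166 CPM in the WT BSA samples, and 145, 168 and 170 CPM in the WT IgG samples. The TRIM21 samples held 96.6, 57.0 and 106 CPM after PBS, 90.1, 104 and 124 CPM after BSA and 98.4, 105 and 111 CPM after IgG. The lines overlapped through the TRIM21 BSA sample numbered 14, which was above the WT BSA sample numbered 11, and the TRIM21 value was the lower one in 9 of 9 pairs of the same treatment and number. The numbers were not taken to pair the samples, so such pair counts, here and below, are a description with no test.

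The line means of Lama4 were 149 ± 23.5 CPM in WT and 99.0 ± 18.4 CPM in TRIM21 (SD, n = 9 each), a 1.51-fold difference (fitted log2 fold change -0.60, SE 0.112). Without the TRIM21 PBS sample numbered 11 the TRIM21 mean was 104 ± 10.2 CPM (SD, n = 8) and the difference 1.43-fold. Both means were lower in TRIM21, and Lama4 kept most of its level while Lama2 did not.

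Lama3 had few counts in both lines, from 7 to 24 in WT samples and from 8 to 31 in TRIM21 samples. Its means were 0.697 ± 0.202 CPM and 0.710 ± 0.339 CPM (SD, n = 9 each), and the TRIM21 value was the lower one in 5 of 9 pairs. Lama5 was read 2 to 9 times in WT samples and 0 to 9 times in TRIM21 samples, with means of 0.199 ± 0.0675 and 0.237 ± 0.144 CPM (SD, n = 9 each). A change in Lama5 that is small against these counts was not detectable at this depth.

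The partner chains overlapped between the lines throughout. Lamb1 was 323 ± 31.4 CPM in WT and 337 ± 51.9 CPM in TRIM21, with ranges of 285 to 374 and 273 to 407 CPM. Lamb2 was 111 ± 23.6 CPM and 104 ± 22.3 CPM, with ranges of 81.0 to 153 and 60.7 to 126 CPM. Lamc1 was 369 ± 43.0 CPM and 352 ± 45.6 CPM, with ranges of 304 to 421 and 258 to 425 CPM (SD, n = 9 each in all 3). The lowest Lamb2 and Lamc1 values of the TRIM21 line both came from the PBS sample numbered 11, and without it the TRIM21 means were 109 ± 16.5 CPM for Lamb2 and 364 ± 31.1 CPM for Lamc1 (SD, n = 8 each). Fitted log2 fold changes between the lines were 0.063 for Lamb1 (SE 0.0900), -0.10 for Lamb2 (SE 0.133) and -0.069 for Lamc1 (SE 0.0801).

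Of the 9 members, 6 passed the filter on low counts (Lama2, Lama3, Lama4, Lamb1, Lamb2 and Lamc1), and Lama2 would not have passed at its TRIM21 level alone. Over all 12140 tested genes, 6.18% differed between the lines at an adjusted p under 0.05 (edgeR quasi-likelihood test), 4.79% lower and 1.39% higher in TRIM21. The Lama2 fall chose the list, so no count of called members is set against these shares.

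**Figure D2:**
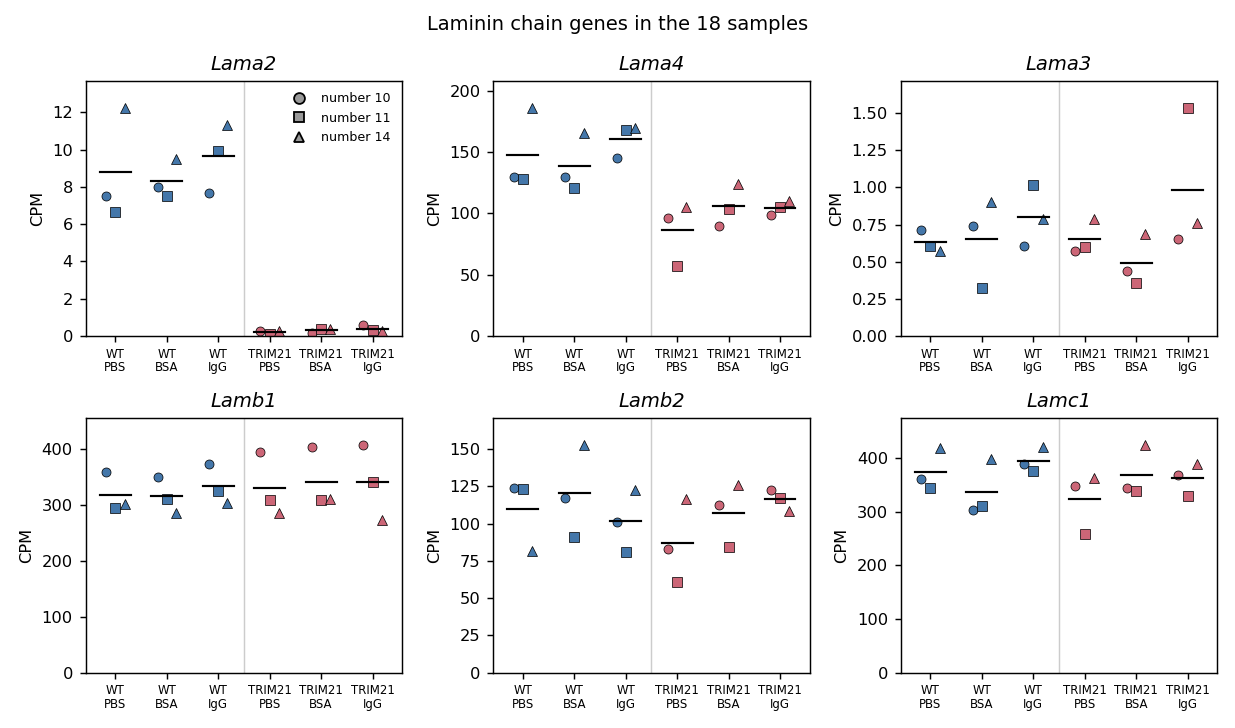
Level in CPM of the 6 laminin chain genes that passed the filter, in each of the 18 samples by group (marker shape: number in the sample title; bar: group mean, n = 3; each axis starts at 0). Lama2 is near 0 in all 9 TRIM21 samples, Lama4 runs from 57.0 to 124 CPM there against 121 to 186 CPM in WT, and the other 4 genes overlap between the lines.

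The alpha chains were then summed per length to ask what remained in the place of Lama2. In WT samples Lama4 made up 95.2% ± 0.310 of the alpha chain sum, Lama2 4.18% ± 0.354, Lama3 0.498% ± 0.125 and Lama5 0.138% ± 0.0479 (SD, n = 9). In TRIM21 samples Lama4 made up 98.7% ± 0.429, Lama2 0.216% ± 0.0967, Lama3 0.810% ± 0.366 and Lama5 0.240% ± 0.148 (SD, n = 9). The Lama3 and Lama5 shares were larger in TRIM21 while the means of both genes lay within 1 SD of their WT means.

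The alpha chain sum was 13.0 ± 2.06 RPKM in WT and 8.31 ± 1.55 RPKM in TRIM21 (SD, n = 9 each), with ranges of 10.5 to 16.2 and 4.78 to 10.4 RPKM. Without Lama2 it was 12.5 ± 1.95 and 8.29 ± 1.54 RPKM, so most of the gap between the lines was Lama4. Without the TRIM21 PBS sample numbered 11 the TRIM21 sum was 8.75 ± 0.855 RPKM, from 7.52 to 10.4 RPKM (SD, n = 8). No other alpha chain had a higher line mean in TRIM21 by more than its spread. The alpha chain sum per unit of Lamc1 was 0.291 ± 0.0237 in WT and 0.194 ± 0.0202 in TRIM21, in ranges of 0.259 to 0.323 and 0.153 to 0.224 that did not overlap. Without that sample the TRIM21 ratio was 0.199 ± 0.0140, from 0.18 to 0.224 (SD, n = 8). The beta chain sum per unit of Lamc1 was 1.15 ± 0.182 and 1.21 ± 0.169 (SD, n = 9 each). With the longest transcript as length the Lama2 share was 3.59% in WT and 0.185% in TRIM21. The alpha chain sum per unit of Lamc1 was then 0.530 in WT and 0.355 in TRIM21, so the size of this ratio depends on the length used.

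The chain RNAs that remained in the TRIM21 line were therefore Lama4, Lamb1, Lamb2 and Lamc1, with Lama3 and Lama5 at trace levels. These are RNA levels, and trimers or protein were not measured.

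**Figure D3:**
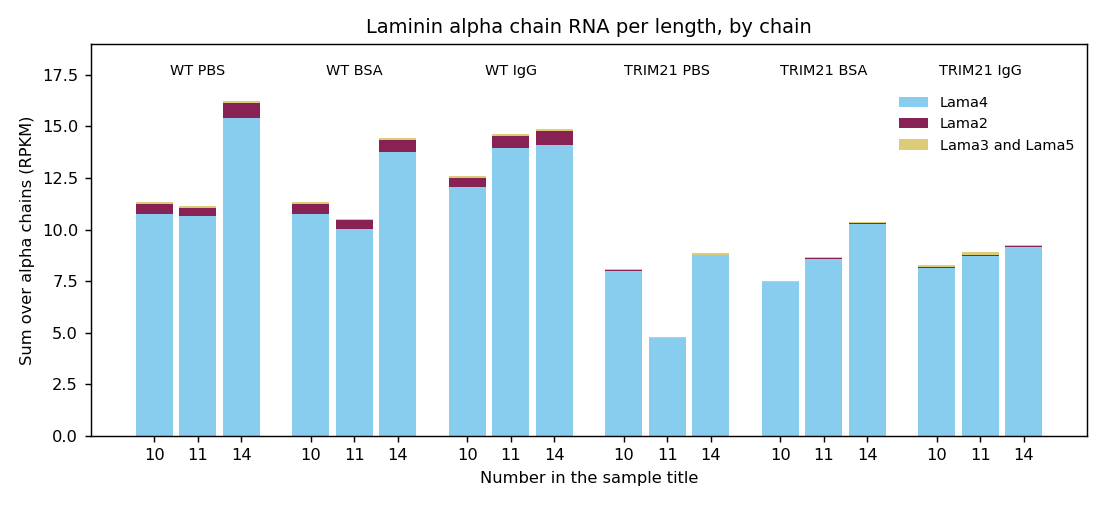
Sum of the laminin alpha chains per length (RPKM over the exon union) in each of the 18 samples, split into Lama4, Lama2 and the sum of Lama3 and Lama5 (Lama1 was at 0). Lama4 fills 95.2% of the WT bars and 98.7% of the TRIM21 bars on average, and the TRIM21 bars reach 4.78 to 10.4 RPKM against 10.5 to 16.2 RPKM in WT.

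Lamc3, a gamma chain gene that was not on the list, had 0 to 12 counts per sample and was not tested.

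Of 19 genes of the count table within 2 Mb of Lama2, 10 were tested and 1 passed between the lines, against 6.18% of all tested genes, so the count is near the overall share. That gene was Ptprk, a receptor-type tyrosine phosphatase. Ptprk lies 455062 bases beyond the 5′ end of Lama2 and was 183 ± 23.9 CPM in WT and 144 ± 9.81 CPM in TRIM21 (SD, n = 9 each). This is a log2 fold change of -0.35 (SE 0.0644, edgeR adjusted p = 0.00222), with lower TRIM21 values in 8 of 9 pairs. The nearest tested gene, Arhgap18, which lies 61388 bases beyond the other end, had a log2 fold change of -0.15 (SE 0.0849, adjusted p = 0.317). L3mbtl3 and Tmem200a on the same side had values of -0.011 and 0.29, and Soga3 and 9330159F19Rik on the side of Ptprk had 0.069 and -0.034, none below the threshold (adjusted p = 0.942, 0.113, 0.698 and 0.881 in the same test). Lama4 lies on chromosome 10 as well, at 38965515 to 39110188, outside this window.

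**Figure D4:**
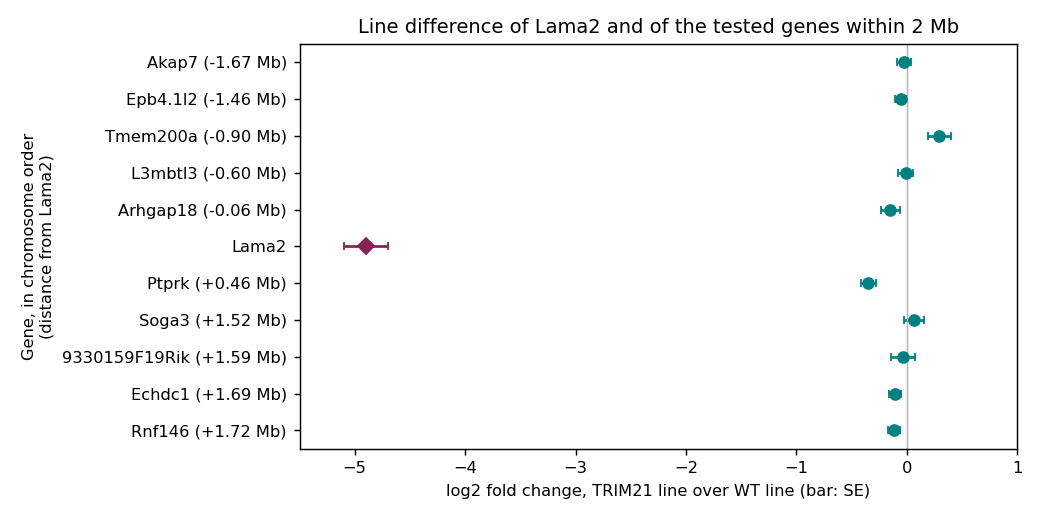
Log2 fold change of the TRIM21 line over the WT line (bar: SE) for Lama2 and the 10 tested genes within 2 Mb, in chromosome order with the distance from the nearer end of Lama2. Lama2 is at -4.90, Ptprk at -0.35, and the other 9 lie between -0.15 and 0.29.

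The receptors that bind laminins are not members and were tested in the line comparison. This list and those below were drawn up with earlier results of these data known, so their p-values are not free of that choice. Of 16 listed genes 15 were tested, 1 was higher and 1 lower in the TRIM21 line, where 6.18% of all tested genes were called, with a median log2 fold change of 0.026 against 0.014 over all tested genes. Dag1, which encodes dystroglycan, the receptor for the globular domains of Lama2, was 371 ± 42.6 CPM in WT and 365 ± 38.8 CPM in TRIM21 (SD, n = 9 each; log2 fold change -0.019, adjusted p = 0.906, edgeR quasi-likelihood test). Itgb1, the beta subunit of most laminin-binding integrins, was 990 ± 60.7 and 1023 ± 83.3 CPM (0.046, adjusted p = 0.671, same test). Its alpha partners Itga6 and Itga7, the latter typical of muscle, had log2 fold changes of 0.21 and -0.18 (adjusted p = 0.290 and 0.676), and Itga7 had 10 to 35 counts per sample.

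The receptor that rose was Itga1, an integrin subunit for collagens and laminins, from 0.397 ± 0.170 to 0.962 ± 0.330 CPM (SD, n = 9 each; log2 fold change 1.27, SE 0.267, edgeR quasi-likelihood adjusted p = 0.00649), on 4 to 34 counts per sample. The receptor that fell was Mcam, a cell adhesion molecule that binds Lama4-containing laminin, from 2.74 ± 0.515 to 1.91 ± 0.394 CPM (-0.52, SE 0.124, adjusted p = 0.0166, same test). Itga1 was higher in 9 of 9 pairs and Mcam lower in 8 of 9.

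The enzymes that put the laminin-binding glycan on dystroglycan gave 0 calls among 17 tested of 18 (median log2 fold change 0.089, edgeR quasi-likelihood test), which is near the overall share of 6.18%. The closest was Large, which builds the glycan itself, at 0.17 (SE 0.0506, adjusted p = 0.0527). The DESeq2 Wald test called 3 of them, Large (0.18) and Pomt1 (0.17) higher and Gmppb (-0.25) lower. The dystrophin complex, which links dystroglycan to the cytoskeleton, gave 0 calls among 8 tested of 13 by both tools (median 0.0081), also near that share. Utrn, the homologue of dystrophin in non-muscle cells, was at -0.17 (SE 0.0928, edgeR adjusted p = 0.304).

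Among the other basement membrane genes, 4 of 18 tested were lower in the TRIM21 line, 0 were higher and 14 did not pass, with a median log2 fold change of -0.15. Over all tested genes 4.79% were called lower and 1.39% higher, with a median of 0.014. Nid1, the nidogen that joins laminin to collagen IV, was 1639 ± 194 CPM in WT and 1492 ± 150 CPM in TRIM21 (SD, n = 9 each; -0.13, adjusted p = 0.314, edgeR quasi-likelihood test). Its homologue Nid2 fell from 17.3 ± 3.93 to 10.1 ± 1.92 CPM (-0.78, SE 0.142, adjusted p = 0.00193, same test). Smoc2, a secreted calcium-binding matrix protein, fell from 6.57 ± 1.79 to 2.12 ± 0.364 CPM (-1.63, SE 0.162, adjusted p = 2.3e-06). Ntn1, a netrin with laminin-like domains, fell from 6.31 ± 0.709 to 2.32 ± 0.485 CPM (-1.45, SE 0.109, adjusted p = 6.58e-08). Sparc, a collagen-binding matrix protein, fell from 2663 ± 228 to 2164 ± 206 CPM (-0.30, SE 0.0743, adjusted p = 0.0207), and its adjusted p was 0.0504 without the TRIM21 IgG sample numbered 10. Smoc2, Ntn1 and Sparc were lower in 9 of 9 pairs and Nid2 in 8 of 9.

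Treatment was asked about separately, since it did not enter the choice of the laminin chains. The edgeR fit gave 0 of 72 adjusted p-values under 0.05 for the 6 laminin chains. These are 12 treatment comparisons, in which each pair of PBS, BSA and IgG was compared in each line, over both lines and as the difference between the lines. In each of these comparisons 0% of the 12140 tested genes were called, with 45 to 790 genes at an unadjusted p under 0.05. Of the 72 chain tests, 2 had an unadjusted p under 0.05, both for Lama3, and the smallest adjusted p was 0.651. The DESeq2 Wald test also called 0 chains, with an adjusted p given for 70 of the 72 tests.

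Lama2 in the WT line, where it was well read, had a log2 fold change of 0.14 for IgG against PBS (95% interval -0.35 to 0.62), 0.21 for IgG against BSA (-0.28 to 0.69) and -0.071 for BSA against PBS (-0.56 to 0.41). In the TRIM21 line the same values were 0.85 (-0.29 to 1.99), 0.42 (-0.62 to 1.47) and 0.43 (-0.74 to 1.6), from 2 to 14 counts per sample. Lama2 passed the filter through the WT line and could not be tested with the TRIM21 groups alone. These 3 of the 72 tests are therefore given for their intervals and nothing is read from them. The Lama2 tests over both lines and of the difference between the lines use the same TRIM21 counts, and nothing is read from those either. A doubling of Lama2 lies outside the WT intervals.

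The well-read chains had narrower intervals, from the fit with no term for the number in the sample title. For IgG against PBS in the TRIM21 line, Lama4 was at 0.28 (95% interval -0.13 to 0.69), Lamb1 at 0.046 (-0.28 to 0.37), Lamb2 at 0.42 (-0.066 to 0.91) and Lamc1 at 0.17 (-0.13 to 0.46). The WT values for these 4 genes were 0.12 (-0.28 to 0.53), 0.071 (-0.26 to 0.40), -0.11 (-0.59 to 0.38) and 0.078 (-0.21 to 0.37). The interaction term tests whether such a difference changes with the line, and the largest for a well-read chain was Lamb2 at 0.53 (-0.16 to 1.22, edgeR adjusted p = 0.972). Lama3 in the TRIM21 line was at 0.93 for IgG against BSA (0.13 to 1.73, unadjusted p = 0.0247, edgeR adjusted p = 1), and at 0.48 without the TRIM21 IgG sample numbered 11.

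**Figure D5:**
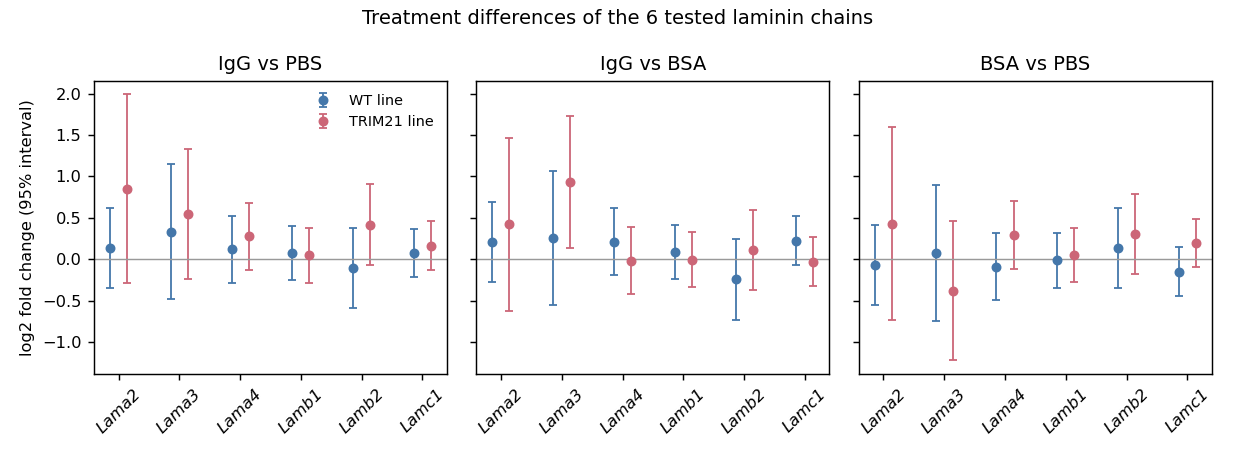
Log2 fold change with its 95% interval for the 6 tested laminin chains in the 3 treatment comparisons within each line. All intervals hold 0 except that of Lama3 for IgG against BSA in the TRIM21 line (0.13 to 1.73), whose adjusted p was 1, and the Lama2 intervals are widest in the TRIM21 line.

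Several chains also followed the number in the sample title, which is 10, 11 or 14 and occurs once in each group. Lamb1 was highest in the sample numbered 10 in 6 of 6 groups, with a mean of 381 ± 23.8 CPM against 315 ± 15.9 for number 11 and 293 ± 14.4 for number 14 (SD, n = 6 each). Lamc1 was highest in number 14 in 6 of 6 groups, at 403 ± 23.6 CPM against 353 ± 28.9 for number 10 and 326 ± 39.5 for number 11. Lama4 was also highest in number 14 in 6 of 6 groups, at 144 ± 34.3 CPM against 115 ± 22.8 and 114 ± 36.4, with both lines pooled in these means (SD, n = 6 each). Lama2 was highest in number 14 in 4 of 6 groups. The partner chains Lamb1 and Lamc1 thus ranked the numbers differently, and what the numbers stand for is not given in the labels.

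The genes whose pattern was most like that of Lama2 were named by Pearson correlation of log2 CPM over the 18 samples. They were Rian (0.989), Uty (0.988), Meg3 (0.987), Asb4 (0.986) and Rgag4 (0.985). Rian and Meg3 are imprinted noncoding RNAs of 1 locus on chromosome 12, Uty is on the Y chromosome and Asb4 lies in an imprinted cluster on chromosome 6. Rian was 120 ± 21.5 CPM in WT and 7.45 ± 1.09 CPM in TRIM21, Meg3 162 ± 32.5 and 9.97 ± 2.10 CPM, and Asb4 11.1 ± 1.77 and 0.242 ± 0.125 CPM (SD, n = 9 each). Rgag4 changed less, from 9.60 ± 0.866 to 3.60 ± 0.452 CPM. Uty had 49 to 81 counts in each WT sample and 0 to 2 in each TRIM21 sample. All points share the same libraries, and a correlation over 18 samples mostly records the step between the lines. With Spearman's correlation 0 of these 5 genes remained among the closest 5. Their Spearman values ran from 0.816 for Meg3 to 0.889 for Rgag4, against 0.917 for Lama4. Over the 9 WT samples the Pearson values were 0.457 for Rian, 0.402 for Uty, 0.103 for Meg3, 0.922 for Asb4 and 0.517 for Rgag4. Among the laminin chains the closest was Lama4, with a Pearson value of 0.833 over the 18 samples, 0.691 over the 9 TRIM21 samples and 0.922 over the 9 WT samples. The TRIM21 value rests on 2 to 14 Lama2 counts per sample. The TRIM21 PBS sample numbered 11 was the lowest of its line for both genes, and this correlation is not given without it.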

How the data were processed

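Each sample has 1 deposited table of whole-number counts by gene symbol, with no normalization. Per the submitters' processing notes, bcl2fastq 2.19.1.403, FastQC 0.11.5, STAR 2.5.1b, HTSeq 0.6.0, DESeq2 1.6.3 and the mm10 build were used. The annotation and the strand setting are not given in the sources used here, and the labels' protocols name strand-specific polyA libraries. Lines for reads given to no gene were left out of library sizes.

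The analysis used edgeR 4.0.16 (R 4.3.3): filterByExpr (minimum count 10, minimum total 15), which kept 12140 of 24062 genes, TMM factors (0.977 to 1.03), 1 mean per group over 18 samples, quasi-likelihood tests and Benjamini-Hochberg adjustment over all tested genes, with a threshold of 0.05. CPM uses these factors. Standard errors come from the F statistic. Exon lengths and positions come from GENCODE for GRCm38, with 22750 symbols matched directly, 916 by an older symbol and 396 not matched. The procedure was tested on simulated counts. No 2 files were identical, and samples of 1 group differed by more than counting noise (chi-square divided by its degrees of freedom, 10.8 to 84.1).

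The members and lists were chosen with earlier results of these data known. Named beside the members were Lamc3, Dag1, Itga6, Itga7, Itgb1, Nid1, up to 5 called genes per list with the largest change, the 5 genes most like Lama2 and the 3 nearest tested genes on each side of it. Large, Pomt1, Gmppb, Utrn and Thy1 were named after their values were seen. Alternatives were DESeq2 1.42.0 size factors, no filter, the replicate number as a block, the DESeq2 Wald test, the compared groups alone, another length and leaving out each sample. The result for 1 listed gene is not reported here.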

Additional observations from a re-analysis of the deposited data

Results flagged for a closer look

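In 16 sets of 9 samples (a laminin chain in a line, where values varied), 3 had a sample set apart from the others by a gap above Dixon's critical share of the whole range, where chance gives about 5% of sets. Lama4 in the TRIM21 line was lowest in the PBS sample numbered 11, at 57.0 CPM. Lama3 in the TRIM21 line was highest in the IgG sample numbered 11, at 1.53 CPM. Lamb3 in the WT line was highest in the IgG sample numbered 11, at 0.102 CPM, which is 2 counts. The 5% is for continuous values and cannot be applied to that set of 0 to 2 counts, so 3 of 16 is not read as an excess.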

How the results depend on the processing

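Wherever an adjusted p was given, the 6 tested laminin chains kept their side of the threshold in the 12 treatment comparisons. This held under each alternative run, including all fits that left out 1 sample. With the compared groups alone, 69 of the 72 chain tests could be run, and the DESeq2 Wald test gave an adjusted p for 70 of the 72. Between the lines, the log2 fold change ran over all alternatives from -5.06 to -4.80 for Lama2, -0.66 to -0.53 for Lama4, 0.013 to 0.10 for Lamb1, -0.20 to -0.038 for Lamb2 and -0.11 to -0.029 for Lamc1, while Lama3 changed sign, from -0.18 to 0.083. The count of genes that differed between the lines was 750, and 517 to 1268 when 1 sample was left out, the highest without the TRIM21 PBS sample numbered 14. The titles' numbers are shared between groups. The deviations of same-numbered samples correlated by -0.323 to 0.578, with a mean of 0.218 against -0.109 for different numbers. Given this range the numbers were not taken to pair the samples, although 16 of 18 samples were closest to their own number. With the number as a replicate block the line count was 1462, with 3 calls among the dystroglycan enzymes and 2 next to Lama2 (Ptprk and Tmem200a). Itga6 (adjusted p = 0.0425) and Col18a1 (0.0376, edgeR) were then also called, and IgG against PBS in both lines gave 1 gene against 0. The DESeq2 Wald test gave 3 of these enzymes and, for IgG against PBS in both lines, 5 genes. Leaving out 1 sample gave 0 to 2 dystroglycan enzymes, 1 to 2 genes next to Lama2 and 3 to 5 of the 5 genes most like it, the lowest of these without the TRIM21 PBS sample numbered 11. Spearman's correlation shared 0 of the 5. With the longest transcript as length, by construction, Lama2 was 0.929 RPKM in WT and 0.0310 in TRIM21, Lama4 24.7 and 16.4, and Lamb1 55.8 and 58.2. For the other results that moved the cause was not tested. Depth limits Lama5, Lamb3 and Lama2 in the TRIM21 line, at 0 to 14 counts per sample.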
